A study of Mus musculus with 6 samples.

Results

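Expression of 7 marker genes of Schwann cells and the neural crest was compared between sorted cell fractions of the mouse embryo. The genes were Sox10, Foxd3, Erbb3, Gfra3, Fabp7, S100b and Mbp, chosen by name from the probe sets that list a single gene, and all 7 were measured, each by 1 probe set, among 22180 genes in all. The cells came from the dorsal body wall of 129SV embryos at E14.5 that carried 1 green fluorescent protein allele of Ebf2, written Ebf2(GFP)/+. Both groups consisted of cells sorted for the mesenchymal receptor PDGFRα, without other treatment, and differed in the GFP signal: 3 arrays of Ebf2(GFP)+ cells (GFP-positive) and 3 arrays of Ebf2(GFP)- cells (GFP-negative). GFP reports activity of the Ebf2 locus. The groups are therefore mixtures of cell types selected by a locus state and a surface receptor, and they are not purified lineages. Whether the replicates stem from separate embryos or litters is not stated in the labels. The p-values thus describe the spread among these samples only, and part of it may be technical.

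Schwann cells are the glia of peripheral nerves and descend from the neural crest, a migratory population of the early embryo that also gives rise to pigment cells and peripheral neurons. Sox10 and Foxd3 are transcription factors of the crest and of its glial and pigment derivatives. Immature Schwann cells depend on neuregulin from axons, which binds ErbB3, a receptor that signals through its partner ErbB2. Fabp7 and Gfra3 are used as markers of glial precursors in developing nerves, S100b of more mature glia, and Mbp of myelin. None of these genes is exclusive to glia: S100b is also expressed in cartilage, and the Mbp locus also gives transcripts in blood cells.

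The values were log2 expression values with array medians between 6.657 and 6.712, and their precision is limited by the number of arrays. Ebf2 followed the sort, with mean log2 levels of 12.00 ± 0.061 (SD, n = 3) in GFP-positive and 8.65 ± 0.526 (SD, n = 3) in GFP-negative cells. That log2 change, 3.35 from the brighter of its 2 probe sets, was 1.69 for their mean. The defining genes of fibroblastic mesenchyme were high in both groups: the mean log2 level of 9 mesenchymal genes, Pdgfra and the collagen I genes among them, was 13.07 to 13.10 on the GFP-positive and 13.15 to 13.16 on the GFP-negative arrays. Markers of macrophages and cartilage, which are not fibroblasts, were also present and were lower in GFP-positive cells. The mean log2 level of 14 macrophage genes was 9.17 to 10.11 in GFP-negative and 7.07 to 7.99 in GFP-positive arrays, and that of 14 cartilage genes 10.40 to 10.62 and 8.83 to 9.15. All 14 genes of either list fell. The macrophage count was 5 without GFP-negative replicate 1 or GFP-positive replicate 2, 9 without GFP-negative replicate 3 and 8 without GFP-positive replicate 1. Of 7 endothelial genes Emcn rose and Cdh5 fell, with 0 to 2 higher and 0 to 1 lower when 1 array was left out. With the replicate number as a block Pecam1 was also lower (adjusted p = 0.0407, and 0.554 without the block). Of the mesenchymal genes Lum fell and 8 did not pass. Lum did not pass without any 1 array other than GFP-negative replicate 1.

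All 7 markers had lower mean levels in GFP-positive cells, and 3 of them passed the test: Fabp7, Gfra3 and Sox10. Passing means an adjusted p (Benjamini-Hochberg) under 0.05 in a limma fit over all genes. Of all genes tested, 6.49% passed, 3.84% as lower and 2.65% as higher in GFP-positive cells. The log2 changes of the markers, GFP-positive minus GFP-negative, ran from −1.64 to −0.32 with a median of −0.59, beside a median of 0.02 over all genes. A log2 change below 0 was found for 43.9% of all genes. An unadjusted limma p under 0.05 was found for 6 of the 7 markers and for 17.7% of all genes. The arrays of the groups did not overlap for 5 of the 7 markers, all of them lower, whereas 9.78% of all genes separated in that direction. The markers were chosen with earlier results of these data known, so the shares of all genes are a background and not a test. In bulk samples such as these, fewer cells of a type and less RNA per cell cannot be told apart. The count of 3 was 1 to 4 with 1 array left out, in fits where 629 to 1067 of all 22180 genes passed. It was 1, Fabp7 alone, without GFP-positive replicate 2, where 667 genes passed.

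**Figure D1:**
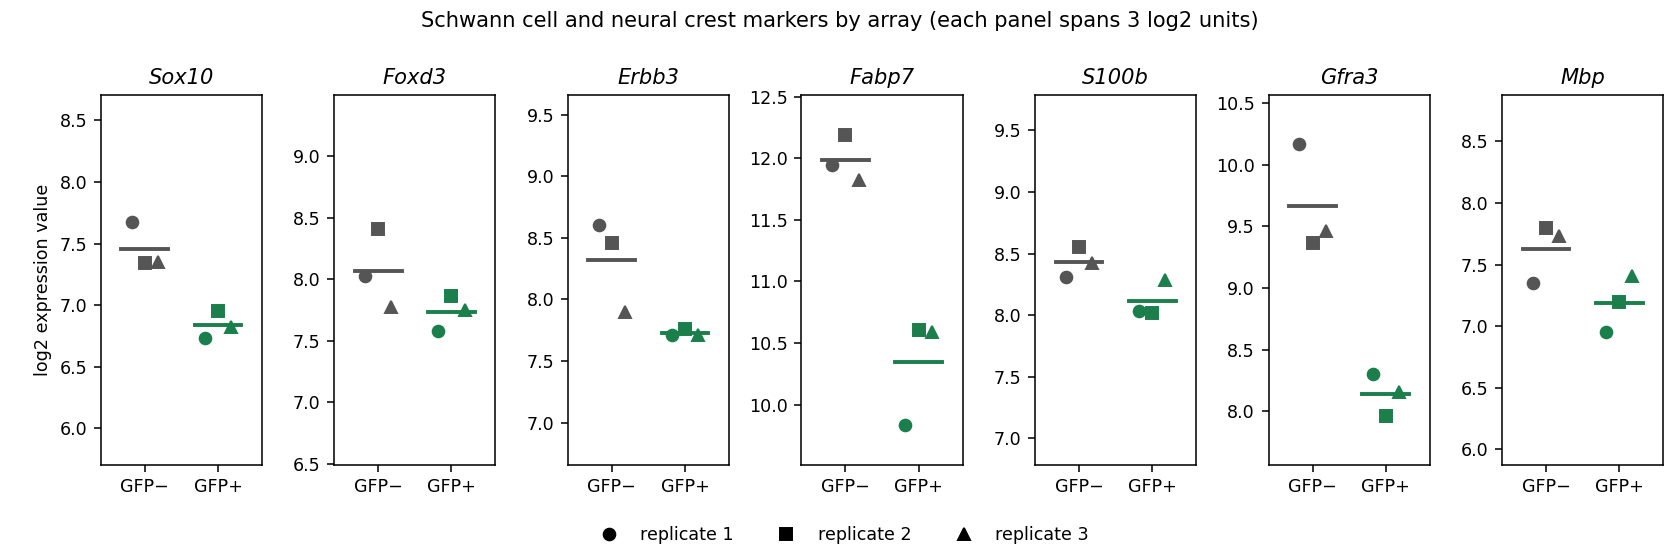
Log2 expression value (vertical axis, 3 log2 units in each panel) of the 7 markers on the 3 GFP-negative (grey) and 3 GFP-positive (green) arrays; symbols give the replicate number and lines the group means. The groups lie apart for Sox10, Erbb3, Fabp7, S100b and Gfra3 and overlap for Foxd3 and Mbp; heights in different panels come from different probe sets and are not comparable.

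Among the transcription factors, Sox10, which is required for the glial fate of crest cells, was lower in GFP-positive cells. Its log2 level was 7.67, 7.35 and 7.35 in GFP-negative replicates 1, 2 and 3 and 6.73, 6.95 and 6.82 in GFP-positive replicates 1, 2 and 3. Every GFP-positive array lay below every GFP-negative array, and the GFP-negative replicate 1 stood highest. Sox10 fell 1.54-fold (log2 change −0.62 ± 0.11 SE, limma adjusted p = 0.021). In GFP-positive cells its mean, 6.84 ± 0.109 (SD, n = 3), lay just above 6.78, the 40th percentile of all gene means, which served here as a mark of dim genes because the files carry no detection calls. The call ended without any 1 GFP-positive replicate, with limma adjusted p-values of 0.0924, 0.0557 and 0.0843 without replicate 1, 2 or 3. It held without GFP-negative replicate 1, 2 or 3 (adjusted p = 0.0323, 0.0471 and 0.0437).

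Foxd3, a forkhead factor that maintains crest progenitors, did not pass. The log2 values of Foxd3 were 8.02, 8.40 and 7.77 in GFP-negative replicates 1, 2 and 3 and 7.58, 7.86 and 7.75 in GFP-positive replicates 1, 2 and 3. The groups overlapped, since GFP-positive replicate 2 lay above GFP-negative replicate 3. The log2 change was −0.33 ± 0.16 SE, with a 95% interval from −0.72 to 0.05 (limma adjusted p = 0.362). The change was −0.17 without GFP-negative replicate 2. GFP-positive arrays lay below the GFP-negative array of the same number by 0.44, 0.54 and 0.02. With the replicate number as a block Foxd3 did not pass either (limma adjusted p = 0.146).

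The closest relatives of these factors were not all alike. Sox9, which acts in crest cells and is also the master regulator of cartilage, fell 1.37-fold (−0.45 ± 0.08 SE, limma adjusted p = 0.0229). Its log2 levels were 11.29, 11.07 and 11.02 in GFP-negative and 10.70, 10.70 and 10.62 in GFP-positive replicates 1, 2 and 3, with no overlap. That call ended without GFP-negative replicate 2 (adjusted p = 0.0582) and without any 1 GFP-positive replicate (0.0853, 0.0861 and 0.0935). Sox8, the remaining member of the SoxE group, had a log2 change of −0.28 with an interval from −0.61 to 0.04 (adjusted p = 0.356), and its groups overlapped. None of the relatives Foxd1, Foxd2 and Foxd4 passed, with log2 changes between −0.12 and 0.11. The GFP-positive group, which had less Sox9, also had less of the cartilage genes, whose part in the fall of Sox9 was not tested.

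Of the receptors, Gfra3, the coreceptor of artemin in the GDNF family, showed the second largest difference among the markers. The arrays gave log2 levels of 10.16, 9.37 and 9.47 in GFP-negative replicates 1, 2 and 3 and 8.30, 7.96 and 8.15 in GFP-positive replicates 1, 2 and 3. The lowest GFP-negative array stood more than 1 log2 unit above the highest GFP-positive array, and replicate 1 was the highest in both groups. Gfra3 fell 2.88-fold (log2 change −1.53 ± 0.21 SE, limma adjusted p = 0.00968). Without GFP-positive replicate 2 the change was −1.44 and did not pass (adjusted p = 0.0521).

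None of the related genes of GDNF signalling passed as lower. Gfra1, the coreceptor of GDNF itself, rose 1.54-fold (0.63 ± 0.13 SE, limma adjusted p = 0.0348), with log2 levels of 10.49, 10.62 and 10.22 in GFP-negative and 11.14, 11.19 and 10.88 in GFP-positive replicates 1, 2 and 3. Its call ended without GFP-negative replicate 1 or 3 (adjusted p = 0.0887 and 0.0721) and without GFP-positive replicate 1 or 2 (0.139 and 0.134). It also ended when the mean of its 2 probe sets was used (0.42, adjusted p = 0.096). Gfra2, the coreceptor of neurturin, differed by −0.49 ± 0.18 SE on the log2 scale (adjusted p = 0.221). Artn, the artemin gene, differed by 0.44 ± 0.10 SE and did not pass (limma adjusted p = 0.0518). Both group means of Artn lay below the mark of dim genes. Over 8 genes of the GDNF family other than Gfra3, namely 4 ligands, the shared receptor Ret and 3 coreceptors, 1 was higher and 0 lower, and 7 had an unadjusted p under 0.05, as did 17.7% of all genes. After quantile normalization or either centring 2 were higher. With the replicate number as a block, 2 were higher, Gfra1 and Ret (adjusted p = 0.0038 and 0.0206), and 2 lower, Gdnf and Gfra2 (0.0477 and 0.0205). Their median log2 change was −0.15.

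Erbb3, the neuregulin receptor of Schwann cell precursors, did not pass, although its groups did not overlap. On the log2 scale it stood at 8.60, 8.46 and 7.90 in GFP-negative replicates 1, 2 and 3 and 7.71, 7.76 and 7.71 in GFP-positive replicates 1, 2 and 3. The GFP-positive arrays were nearly equal (SD 0.0284), and the spread lay in the GFP-negative group (SD 0.373), where replicate 3 was low. The log2 change was −0.59 ± 0.17 SE, with a 95% interval from −1.0 to −0.18 (limma adjusted p = 0.119). Without GFP-negative replicate 3 the change was −0.80 and passed (adjusted p = 0.00568), and over the other arrays left out the adjusted p was 0.226 to 0.315.

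None of the measured partners and ligands of ErbB3 passed as lower. Erbb2, which signals together with ErbB3, had a log2 change of −0.14 with an interval from −0.37 to 0.08 (limma adjusted p = 0.512). Nrg1, the neuregulin that acts on Schwann cells, differed by 0.08 with an interval from −0.14 to 0.29 (adjusted p = 0.741). Egfr, another receptor of the family, rose 1.67-fold (0.74 ± 0.06 SE, adjusted p = 0.00116). Its log2 levels of 11.15, 11.08 and 11.19 in GFP-negative and 11.89, 11.92 and 11.82 in GFP-positive replicates 1, 2 and 3 did not overlap. It was the only 1 of 7 neuregulin and ErbB genes other than Erbb3 that passed.

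**Figure D2:**
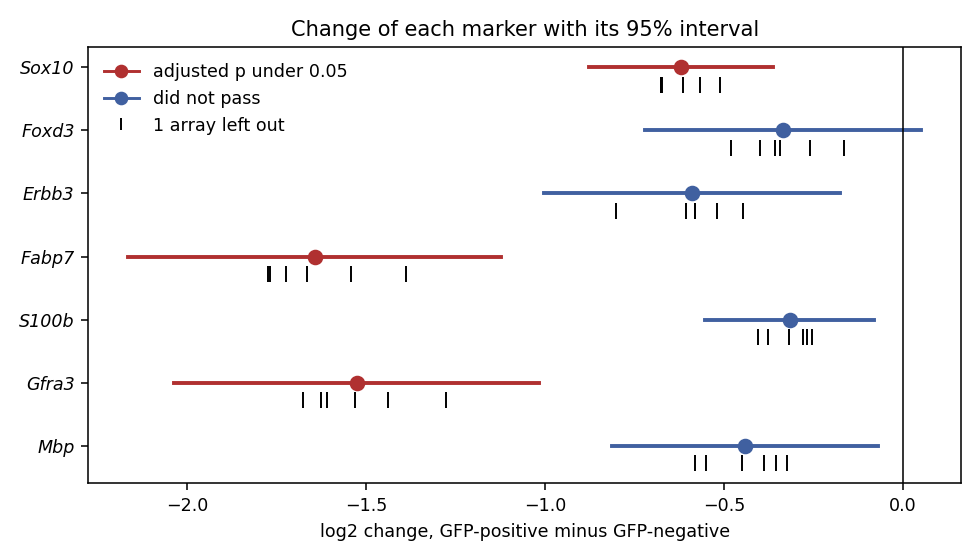
Log2 change of each marker, GFP-positive minus GFP-negative (points), with its 95% interval (lines) and the change with 1 array left out (ticks, 6 per gene). Red marks the genes that passed limma's test over all genes and blue those that did not; all points lie below 0, and the interval of Foxd3 reaches 0.05.

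Fabp7, a fatty acid binding protein of glial precursors, had the largest difference of the markers. Its log2 level was 11.94, 12.19 and 11.82 in GFP-negative replicates 1, 2 and 3 and 9.83, 10.60 and 10.59 in GFP-positive replicates 1, 2 and 3. The groups were more than 1 log2 unit apart, and GFP-positive replicate 1 was the lowest of all. Fabp7 fell 3.12-fold (log2 change −1.64 ± 0.22 SE, limma adjusted p = 0.00802). It was the 1 marker whose call held at an adjusted p of 0.05 with any 1 array left out, with changes from −1.77 to −1.39 and adjusted p-values from 0.008 to 0.0377. Of the relatives Fabp3, Fabp4 and Fabp5, none passed. Fabp4, the fatty acid binding protein of fat cells, differed by 0.78 ± 0.51 SE on the log2 scale (adjusted p = 0.516, and 0.0224 with the replicate block). Fabp5, an epidermal type, differed by 0.00 with an interval from −0.24 to 0.24.

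S100b, a calcium-binding protein of glia and cartilage, did not pass, with groups that did not overlap. Its values on the log2 scale were 8.31, 8.56 and 8.43 in GFP-negative replicates 1, 2 and 3 and 8.04, 8.02 and 8.29 in GFP-positive replicates 1, 2 and 3. GFP-positive replicate 3 and GFP-negative replicate 1 nearly met. The log2 change was −0.32 ± 0.10 SE, with an interval from −0.55 to −0.08 (limma adjusted p = 0.141). A relative, S100a1, fell more: its log2 levels were 9.27, 9.59 and 9.64 in GFP-negative and 7.65, 8.16 and 8.43 in GFP-positive replicates 1, 2 and 3. S100a1 was 2.68-fold lower (−1.42 ± 0.20 SE, adjusted p = 0.0106). That call ended without GFP-negative replicate 2 or GFP-positive replicate 2 (adjusted p up to 0.0506). The other 6 S100 genes of the list did not pass, with log2 changes between −0.21 and 0.27.

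The promoters of Fabp7 and S100b are shown because these effector genes lie on the same chromosome and only the former passed the test. RefSeq promoter sequences of build GRCm38.p6 were at hand for 3 of the 7 markers, these and Foxd3. The windows are the 250 bases before the gene start, chr10:57784673-57784922 for Fabp7 and chr10:76253586-76253835 for S100b, both on the plus strand. Capitals mark the CCAAT box, read on either strand as CCAAT or ATTGG.
Fabp7: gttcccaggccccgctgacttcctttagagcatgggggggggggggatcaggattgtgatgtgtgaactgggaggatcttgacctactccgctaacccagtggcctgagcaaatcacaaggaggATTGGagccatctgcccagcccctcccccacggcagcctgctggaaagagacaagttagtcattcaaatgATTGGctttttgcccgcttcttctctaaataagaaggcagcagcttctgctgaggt
S100b: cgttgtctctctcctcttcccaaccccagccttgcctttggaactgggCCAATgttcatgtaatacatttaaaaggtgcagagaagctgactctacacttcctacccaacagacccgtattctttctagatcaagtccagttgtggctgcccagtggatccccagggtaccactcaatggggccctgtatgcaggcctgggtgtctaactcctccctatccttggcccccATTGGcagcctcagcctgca
Each window holds 2 CCAAT boxes, which begin 126 and 56 bases before the start in Fabp7 and 202 and 20 bases before it in S100b. Foxd3 has none in its window, and 33.8% of 32851 mouse promoter windows of this length hold at least 1. The Sox-type letters ACAAAG and ACAATG, on both strands, are in none of these 3 windows and in 16.5% and 10.7% of all windows. The Ebf-type palindrome, searched by its consensus, is also in none of the 3 and in 0.779% of all. These matches describe letters only.

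Mbp, the myelin basic protein gene, did not pass. Log2 levels of Mbp were 7.35, 7.80 and 7.73 in GFP-negative replicates 1, 2 and 3 and 6.95, 7.20 and 7.41 in GFP-positive replicates 1, 2 and 3. The groups overlapped, and replicate 1 was the lowest in both. The log2 change was −0.44 ± 0.16 SE, with an interval from −0.81 to −0.07 (limma adjusted p = 0.195). Each GFP-positive array lay below the GFP-negative array of the same number, by 0.40, 0.60 and 0.33. With the replicate number as a block, Mbp passed (adjusted p = 0.0221), and so 4 of 7 markers were lower in that fit, beside 5.49% of all genes. The block changed no other call among the markers. The GFP-positive arrays also had lower macrophage genes, and the part of these in the change of Mbp was not tested.

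**Figure D3:**
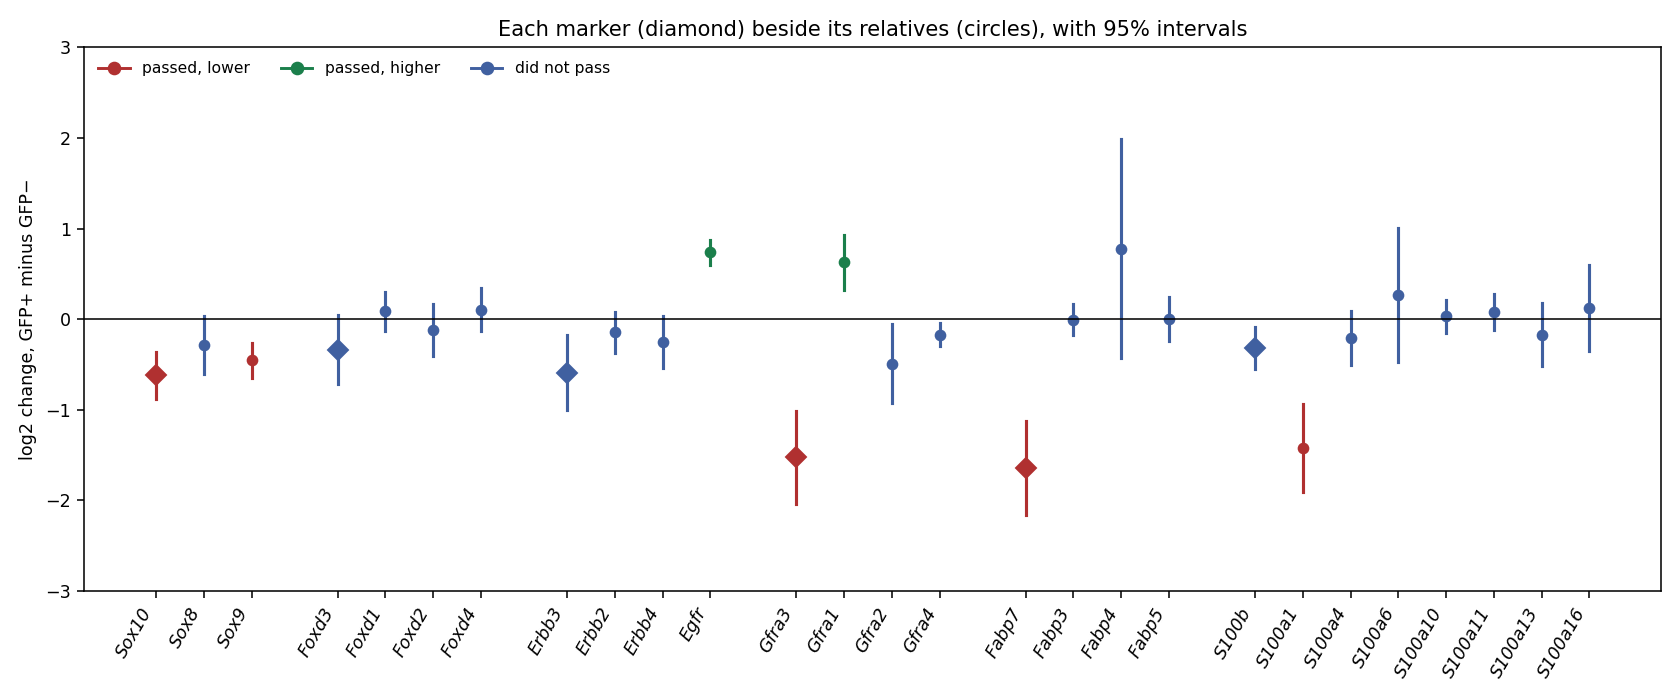
Log2 change, GFP-positive minus GFP-negative, of the markers other than Mbp (diamonds) and of the measured relatives in their families (circles), with 95% intervals; red and green mark genes that passed as lower or higher and blue those that did not. Gfra3 lies below 0 and Gfra1 above it, Fabp7 is far below Fabp3 and Fabp5, and S100a1 is below S100b.

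The markers did not rank the arrays alike within a group. GFP-negative replicate 1 held the highest value of Sox10, Erbb3 and Gfra3 and the lowest of S100b and Mbp, and GFP-negative replicate 2 the highest of Foxd3, Fabp7, S100b and Mbp. In the GFP-positive group, replicate 1 was the lowest for Sox10, Foxd3, Fabp7 and Mbp and the highest for Gfra3. The mean log2 level of the 7 markers was 8.87, 8.87 and 8.64 in GFP-negative and 7.88, 8.05 and 8.10 in GFP-positive replicates 1, 2 and 3, so that the groups stayed apart. The gap between those group means, 0.782, was smaller than the gaps of the macrophage list (2.06) and the cartilage list (1.5) and larger than that of the mesenchymal list (0.071). Neither list's part in the marker changes was tested.

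Other genes of the Schwann lineage included members that fell and a member that rose. Of 22 listed genes 18 were measured, of which 3 fell, 1 rose and 14 did not pass, with a median log2 change of −0.17. The counts of this and the other lists stand beside 3.84% of all genes that passed as lower and 2.65% as higher. Adgrg6, the adhesion receptor needed for myelination, which is also expressed in cartilage, fell 2.42-fold (−1.28 ± 0.07 SE, limma adjusted p = 0.000374). Its log2 levels were 11.21, 11.26 and 11.28 in GFP-negative and 9.86, 10.02 and 10.04 in GFP-positive replicates 1, 2 and 3. Sox2, a factor of immature glia, fell 1.64-fold (adjusted p = 0.0454) to a GFP-positive mean of 6.68, below the mark of dim genes, and the myelin enzyme gene Cnp 1.19-fold (adjusted p = 0.0327). The call of Cnp ended with any 1 array left out (up to 0.116) and that of Sox2 with any but GFP-negative replicate 3 (up to 0.144), so 1 gene of the list fell without any 1 of those 5 arrays. The call of Cnp also ended with median centring (0.0571), centring on the tested genes (0.0944) and a mean-variance trend in eBayes (0.0633), and that of Sox2 with quantile normalization (0.0501) and array weights (0.0601). In the fit with the replicate block 4 of its genes fell, since Ttyh1, a membrane protein gene of neural cells, passed too (−0.53, adjusted p = 0.00919, and 0.126 without the block).

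Against that direction, Ngfr, the low-affinity neurotrophin receptor of crest cells and immature glia, which is also found on mesenchymal cells, rose 3.60-fold (1.85 ± 0.14 SE, limma adjusted p = 0.00116). Its log2 levels were 9.95, 10.17 and 9.70 in GFP-negative and 11.86, 11.94 and 11.56 in GFP-positive replicates 1, 2 and 3. Pmp22, a myelin protein gene with broad expression, differed by −0.03 with an interval from −0.15 to 0.10 (adjusted p = 0.852), and its sign turned to 0.03 after centring on the tested genes. Ncam1 and Gap43, with mean log2 levels of 11.51 and 10.45 over all arrays, both differed by −0.04 (limma adjusted p = 0.855 and 0.934). Of the 18 measured genes, 7 had means below the mark of 6.78. The log2 means of Cdh19, Dhh and Mag were 5.86, 6.49 and 5.84 in GFP-negative and 5.59, 6.29 and 5.77 in GFP-positive cells, and these 3 genes were among them. The 7 markers themselves lay above that mark in both groups.

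Among 11 measured transcription factors of the neural crest, 4 fell, 0 rose and 7 did not pass, with a median log2 change of −0.28. The smallest p-values were those of Msx2, a BMP-responsive homeobox gene (1.89-fold, −0.92 ± 0.06 SE, limma adjusted p = 0.000551), whose GFP-positive mean of 6.25 lay below the mark of dim genes, and Twist1, a bHLH factor of crest and mesoderm (1.75-fold, −0.80 ± 0.06 SE, adjusted p = 0.000969). Sox5, which acts with SoxE proteins in crest and cartilage, fell 1.54-fold (adjusted p = 0.0317), as did Sox9. Sox5 did not pass without any 1 array other than GFP-negative replicate 3 (up to 0.13), and the number that fell was 2 without GFP-negative replicate 2 or any 1 GFP-positive replicate. All 4 genes are also expressed in mesenchyme or cartilage. With the replicate number as a block 1 gene rose, the ETS factor gene Ets1 (0.36, adjusted p = 0.0166, and 0.269 without the block).

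Genes of the other crest derivatives gave a mixed picture. Of 10 melanocyte lineage genes 1 fell, the endothelin receptor gene Ednrb, which is also expressed in mesenchyme (4.37-fold, −2.13 ± 0.26 SE, limma adjusted p = 0.00548). Its log2 levels were 11.28, 10.85 and 11.46 in GFP-negative and 8.55, 9.46 and 9.20 in GFP-positive replicates 1, 2 and 3. The other 9 did not pass, and 6 of the 10 had means below the mark of dim genes. That 1 call is 10% of the list, beside 6.49% of all genes. Of 11 measured peripheral neuron genes 2 fell, Stmn2 (1.78-fold, adjusted p = 0.0131) and the intermediate filament gene Prph (1.46-fold, adjusted p = 0.0162). Another intermediate filament gene, Nefm, rose 1.51-fold (adjusted p = 0.00951) from a GFP-negative mean of 6.64, below the mark of dim genes. Stmn2 did not pass without GFP-negative replicate 1 or 2 or GFP-positive replicate 1 (up to 0.0638), Prph without any 1 GFP-positive replicate (up to 0.0786) and Nefm without GFP-positive replicate 1 (0.0515). With the replicate number as a block 3 fell and 2 rose: the synaptic gene Snap25 was lower (−0.51, adjusted p = 0.00727, and 0.184 without the block) and the neurofilament gene Nefl higher (0.32, adjusted p = 0.0327, and 0.105 without it).

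Neighbouring glial and nerve sheath lists were also measured. Of 6 oligodendrocyte genes, the lineage factors Olig2 (2.32-fold, −1.21 ± 0.07 SE, limma adjusted p = 0.000527) and Olig1 (2.05-fold, −1.04 ± 0.17 SE, adjusted p = 0.0157) fell and 4 did not pass. The GFP-positive means of Olig1 and Olig2 lay below the mark of dim genes, and Olig1 did not pass without GFP-negative replicate 1 or GFP-positive replicate 1 or 2 (up to 0.0709). Of 7 perineurial and meningeal genes 2 fell, the prostaglandin synthase gene Ptgds (4.37-fold, adjusted p = 0.00535) and the forkhead gene Foxc1 (1.51-fold, adjusted p = 0.0381). The other 5 did not pass, among them Slc2a1, Cldn1 and Crabp2 with log2 changes of −0.11, −0.06 and 0.26. The median log2 change of this list was −0.06. Foxc1 did not pass after centring on the tested genes (0.0513), nor without GFP-negative replicate 2 or any 1 GFP-positive replicate (up to 0.135).

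**Figure D4:**
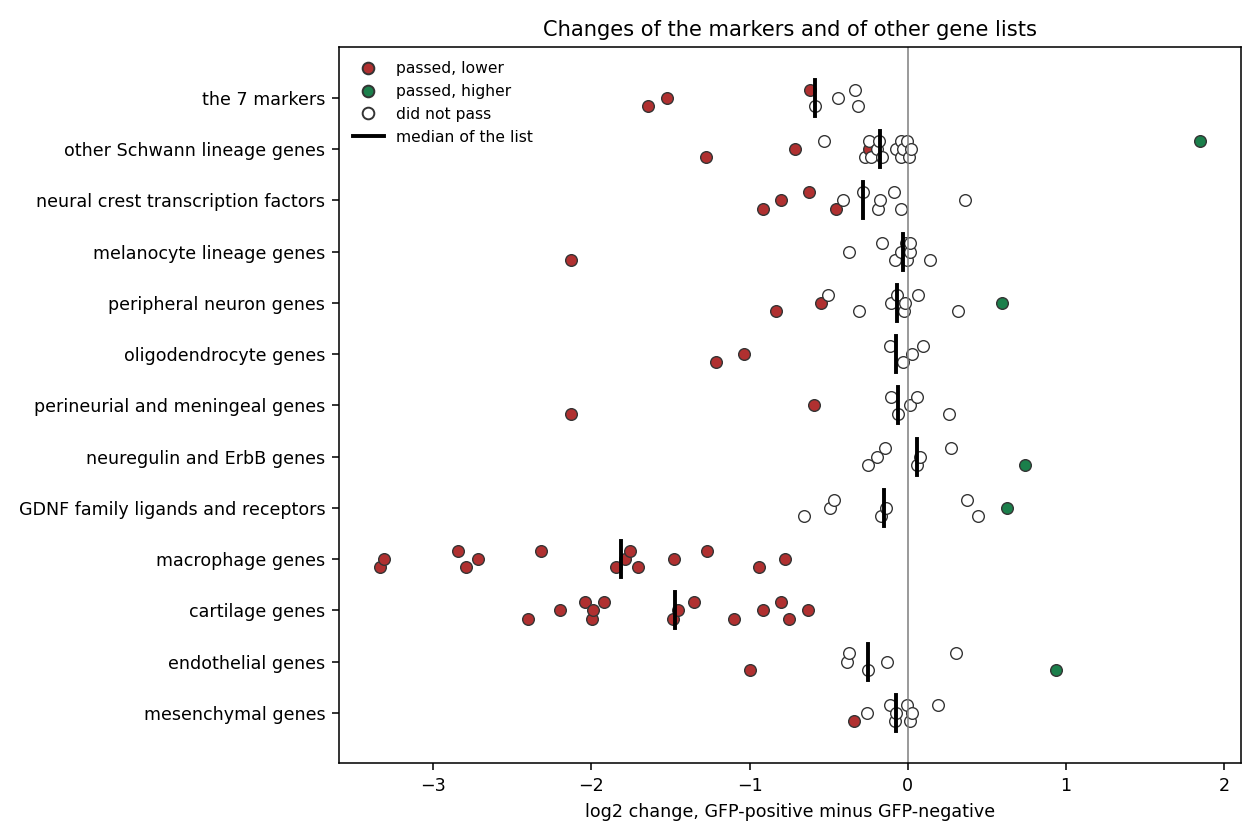
Log2 change, GFP-positive minus GFP-negative, of the 7 markers and of the measured genes of 12 other lists, 1 point per gene; filled points passed limma's test (red lower, green higher), open points did not, and black bars are list medians. The markers have a median of −0.59, the macrophage and cartilage lists lie wholly below 0, and the remaining lists have medians between −0.28 and 0.05.

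The genes whose levels followed the mean of the 7 markers most closely over the 6 arrays were Crnde, Pdzrn4, Prdm1, Ermp1, Emp2, Gm5424, Minar2 and Mall, with Pearson correlations of 0.994 to 0.999. They were the 8 highest of 13197 genes that were not dim and in no list, of which 609 had a correlation above 0.9. The arrays form separate groups, so these correlations include the gap between the groups. After subtracting group means, the 8 genes still correlated with the marker mean at 0.906 to 0.981. They were picked for their correlation over these same arrays, so neither range carries a test.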

How the data were processed

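Affymetrix arrays measured RNA from 6 samples of sorted cells. The authors deposited log2 values, 1 per probe set and array. RMA and limma are the tools in the submitters' processing notes, and the sources used here give no version or filter. RMA sets arrays to a common distribution. Per the labels' protocols, total RNA was taken from freshly sorted cells and labelled with biotin. Of 41345 probe sets, 23521 list 1 gene. Symbols were updated by gene identifier through RefSeq genes of GRCm38.p6, and the probe set with the highest mean was kept per gene, leaving 22180 genes with no filter.

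The groups were compared with limma 3.58.1 (lmFit and eBayes, R 4.3.3), adjusted by Benjamini-Hochberg over all genes. The method was tested on simulated data with independent arrays, which do not hold the replicate pairing described below. Errors are SD over arrays or limma's SE, and 95% intervals use its moderated spread. The markers and lists were chosen with earlier results of these data known. Named genes are every marker, up to 4 genes with the smallest p among those that passed per list, and up to 3 of the highest of those that did not. Sox8, Ret, Gdnf, Artn, Fabp4, Fabp5, Cdh19, Dhh, Mag, Ttyh1, Ets1, Snap25, Nefl, Pecam1 and the CCAAT motif were chosen after their values were seen. Listed genes without a probe set of their own were not analysed here, and protein sequences were not used here.

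The labels number replicates alike in both groups. After subtracting group means, arrays of the same number correlated at 0.314 to 0.519 and arrays of different numbers at −0.384 to −0.0243. The subtraction makes the deviations in a group sum to 0, so these ranges are not independent of each other. The numbers were taken to pair the arrays, from the data alone. The main fit, which gave the intervals and the p-values not said to use a block, ignores this pairing. The block with the replicate number is given for Foxd3 and where it changes the call of a marker or listed gene.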

Additional observations from a re-analysis of the deposited data

How the results depend on the processing

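A total of 16 alternatives were planned and 1, centring on the median of the tested genes, was chosen after seeing the data. All 7 markers kept a change below 0 in all 17. The calls of the markers that changed are those of Sox10, Gfra3, Erbb3 and Mbp given above, besides Sox10 at an adjusted p of 0.01 (0.021). The number of genes that passed, 1439, was 2228 with the replicate block, 539 at an adjusted p of 0.01 and 629 to 1067 with 1 array left out. Centring on the tested genes gave 868 higher and 749 lower genes (53.7% higher in place of 40.9%), and 3 of the 7 markers still passed as lower. The number of markers that passed was 1 to 4 with 1 array left out, and their median change was −0.67 to −0.51. The sign of Pmp22 turned to 0.029 after centring on the tested genes. The causes were not tested. The comparison of protein sequences that had been planned was not run. The 3 arrays a group limit the precision, as the intervals of the markers show.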
